A study of Mus musculus with 6 samples.

Results

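C-type lectin receptors are surface proteins of myeloid cells that bind sugars, lipids or proteins through a C-type lectin-like fold. The set described here holds 10 of the 56884 genes of the table, chosen by gene symbol: Clec4d, Clec4e, Clec4n, Clec7a, Clec1b, Clec5a, Clec4a2, Clec12a, Clec2d and Clec10a. All 10 were found, each in 1 row, and all 10 passed the filter on low values. RNA sequencing covered 6 libraries of mature neutrophils, sorted from mouse bone marrow by CD101 and Ly6G and kept ex vivo, 3 in DKK1 and 3 without it, here called control. DKK1 (Dickkopf-1) is a secreted antagonist of Wnt signalling. No source used here gives the dose, the culture time, or the strain, age and sex of the mice. Whether the replicate libraries stem from different mice or dishes is not labelled, and a p-value then reflects library-to-library spread alone, which may be technical.

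These receptors fall into signalling classes. Clec4e (Mincle), Clec4d (MCL) and Clec4n (Dectin-2) signal through the adaptor FcRgamma, encoded by Fcer1g, while Clec5a (MDL1) uses DAP12, encoded by Tyrobp. Clec7a (Dectin-1) and Clec1b (CLEC-2) carry a single tyrosine motif of their own, the hemITAM, and all of these routes meet at the kinase SYK, with CARD9, BCL10 and MALT1 downstream. Clec4a2 (DCIR1) and Clec12a (MICL) carry inhibitory ITIM motifs, which recruit the phosphatases SHP-1 and SHP-2. Clec2d (Clr-b) is a ligand of the inhibitory NK cell receptor NKR-P1B, and Clec10a (MGL1) is a galactose-type lectin of macrophages and dendritic cells.

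Upstream sequence was read for the 2 neighbouring genes with the highest levels in DKK1 libraries, Clec4e and Clec4d, and for Clec7a, which changed in the other direction. The sequences are from RefSeq on GRCm38.p6 and cover the 250 bases before each start site, 5′ to 3′ on the strand of the gene. Capitals mark matches, on either strand, to the C/EBP letters TTGCNNAA, the PU.1 core GAGGAA and the TATA box TATAAA; no match overlapped another in these windows.
Clec4e (chr6:123289872-123290121, minus strand): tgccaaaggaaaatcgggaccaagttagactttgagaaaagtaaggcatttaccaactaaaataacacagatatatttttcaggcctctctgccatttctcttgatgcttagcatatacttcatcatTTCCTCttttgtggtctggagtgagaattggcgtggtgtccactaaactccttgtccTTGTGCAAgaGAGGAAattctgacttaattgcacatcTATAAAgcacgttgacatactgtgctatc
Clec4d (chr6:123261857-123262106, plus strand): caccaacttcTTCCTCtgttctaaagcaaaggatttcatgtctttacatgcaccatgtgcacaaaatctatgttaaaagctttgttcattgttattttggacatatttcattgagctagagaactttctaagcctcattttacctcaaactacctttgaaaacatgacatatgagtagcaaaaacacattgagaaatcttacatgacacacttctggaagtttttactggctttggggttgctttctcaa
Clec7a (chr6:129472780-129473029, minus strand): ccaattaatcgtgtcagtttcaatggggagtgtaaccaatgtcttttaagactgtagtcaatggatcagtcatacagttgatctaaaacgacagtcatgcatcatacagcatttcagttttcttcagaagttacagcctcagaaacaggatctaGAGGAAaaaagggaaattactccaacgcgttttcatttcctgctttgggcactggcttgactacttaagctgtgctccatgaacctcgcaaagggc
The Clec4e window held 1 C/EBP match, 2 PU.1 matches and a TATA box 29 bases before the start site. The Clec4d and Clec7a windows each held 1 PU.1 match, and for Clec7a the first of 2 windows in the table is shown. Of the 8 receptor genes in the promoter table, 5 held a PU.1 match, against 23.3% of all 32851 windows of that length. A C/EBP match was found for 2 of the 8 (Clec4e and Clec12a), against 9.56% of all windows. An AP-1 match (TGANTCA) was found for 1 of the 8, Clec12a, against 6.75%. A TATA box was found for 4 of the 8 (Clec4e, Clec1b, Clec4a2 and Clec5a), against 12.4%. No window of the 8 held the E-box CACGTG, found in 6.02% of all windows, or the NF-kappaB motif, found in 1.41%. Not all windows lie outside transcribed sequence: the Clec12a window lies inside its annotated gene with all 250 bases in exons, and the Clec4a2 window inside its gene with 68 bases in exons. The Clec5a window holds 16 exon bases. A match describes letters and is not a binding site.

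Recovered read totals ranged from 5188116 to 8749228 in DKK1 libraries and from 8688911 to 9851961 in control libraries. The defining markers of the sorted population were close to 0 in the DKK1 libraries. Of 16 neutrophil markers 15 were lower with DKK1 and 1, Camp, did not pass, and their summed normalized count was 4268 to 4877 in DKK1 libraries, against 719518 to 744878 in control. Cd101 and Ly6g, the sorting markers, had 13 and 19 reads over the 3 DKK1 libraries, against 14389 and 3774 in control. In each library labelled DKK1 the transcripts that name the sorted cell type were thus close to 0. DKK1 library 2 stood apart within its group, since its reads differed from DKK1 libraries 1 and 3 by 12.4 and 11.4 times counting noise (chi-square per degree of freedom), against 2.96 between libraries 1 and 3.

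Transcripts of 4 receptors were higher with DKK1 and those of 6 were lower. All 3 FcRgamma-coupled receptors of the set rose, together with Clec10a, which was close to the detection limit. Both hemITAM receptors, the DAP12-coupled Clec5a, both ITIM receptors and Clec2d fell. The test was limma with Benjamini-Hochberg adjustment over 16265 genes, at a threshold of 0.05 (adjusted p). It called 71.2% of all genes tested, 35.1% higher and 36.1% lower, so a call alone does not set these receptors apart. On recovered reads, edgeR called 70.1% (33.8% higher and 36.3% lower) and DESeq2 65.7% (31.6% higher and 34.1% lower), with the same 4 and 6 receptors among them. The groups did not overlap for any of the 10 receptors, as for 73.9% of all genes tested (36.5% with DKK1 above control and 37.4% below). An absolute log2 change of at least 2.5 together with a call was seen for 7 of the 10 receptors and for 27.9% of all genes tested. This cutoff was not part of the design, and Clec4e, at 2.65, lay just above it, so the count depends on the cutoff. Without DKK1 library 2 the test called 71.8% of genes (33.7% higher and 38.1% lower), and again 4 receptors were higher and 6 lower. The median log2 change of the 10 was -2.65, and that of all genes tested was -0.03. In these bulk libraries, fewer cells of a type and less RNA per cell cannot be told apart.

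**Figure D1:**
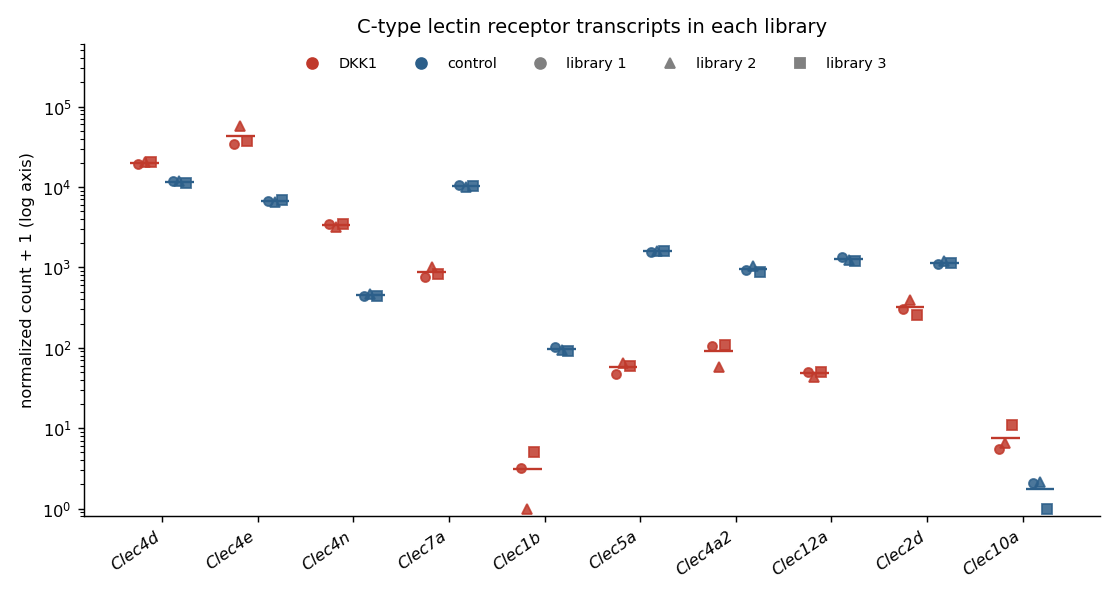
Normalized count + 1 on a log axis for each receptor gene, with 1 point per library (DKK1 red and left, control blue and right, symbol by library number) and a line at the group mean. For each of the 10 genes all DKK1 points lie on the same side of all control points.

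Clec4e encodes Mincle, which recognizes mycobacterial cord factor and the nuclear protein SAP130 released by dying cells. Its normalized counts were 34459, 57529 and 37414 in DKK1 libraries 1 to 3, and 6666, 6535 and 6816 in control libraries 1 to 3. DKK1 library 2 was the highest and every DKK1 library was far above every control library. The mean was 43134 ± 12554 with DKK1 and 6672 ± 140.4 in control (SD, n = 3 each), which is 6.46-fold higher (log2 change 2.65, SE 0.17, 95% interval 2.27 to 3.04, limma adjusted p = 1.38e-06). Without DKK1 library 2 the log2 change was 2.43.

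Clec4d encodes MCL, which pairs with Mincle on the cell surface. Its normalized counts were 19534, 20670 and 20186 in DKK1 libraries, against 11724, 11717 and 11279 in control libraries. The groups were separate, and the rise was the smallest of the 4. The mean was 20130.1 ± 569.6 with DKK1 and 11573 ± 255 in control, which is 1.74-fold higher (log2 change 0.80, SE 0.04, limma adjusted p = 1.71e-07).

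Clec4n encodes Dectin-2, a receptor for mannans of fungal cell walls. Its normalized counts were 3424, 3148 and 3461 in DKK1 libraries, against 444.8, 465.8 and 433.5 in control libraries. Here DKK1 library 2 was the lowest of its group, and all DKK1 libraries lay above all control libraries. The mean was 3345 ± 171 with DKK1 and 448 ± 16.4 in control, which is 7.47-fold higher (log2 change 2.90, SE 0.07, limma adjusted p = 9.05e-10).

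Clec7a encodes Dectin-1, the receptor for fungal beta-glucans that triggers phagocytosis and the oxidative burst in neutrophils and macrophages. Its normalized counts were 753.5, 1021 and 825.5 in DKK1 libraries, against 10515, 10087 and 10342 in control libraries. Every DKK1 library lay below every control library, with DKK1 library 2 the highest of its group. The mean was 866.6 ± 138 with DKK1 and 10315 ± 215 in control, which is 11.9-fold lower (limma adjusted p = 2.76e-09, log2 change -3.58, SE 0.10).

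Clec1b encodes CLEC-2, best known on platelets as the receptor for podoplanin. Its normalized counts were 2.24, 0 and 4.08 in DKK1 libraries, from 8 reads in all, and 101, 93.8 and 89.7 in control libraries, from 267 reads. Scaled reads were 39.0-fold lower, with a 95% exact counting interval of 19.5 to 91.2. The log2 change was -5.23 (SE 0.56, 95% interval -6.51 to -3.95, limma adjusted p = 2.65e-05), the widest interval among the receptors that fell. With a pseudocount of 10 in place of 1 it was -3.13. Markers of platelets and megakaryocytes were low in both groups, and their normalized counts summed to 90.7 to 102 in DKK1 libraries, against 104 to 130 in control libraries. Of that list 10 genes were examined and 6 tested, with 2 higher and 1, Gp1ba, lower. Gp1ba, the highest of the list in control, averaged 3.68 with DKK1 and 83.9 in control, from 12 and 236 reads (log2 change -4.20). Gp1ba thus fell, as Clec1b did. The 2 higher genes were Tubb1, at 49.2 with DKK1 and 5.87 in control, and Gp6, with 25 reads with DKK1 and 0 in control. The sums therefore hide changes in opposite directions. Pf4 had 11 reads with DKK1 and 1 in control, and Gp9 had 1 with DKK1 and 4 in control. The part of platelets in the Clec1b result was not tested. The annotated Clec1b gene overlaps Clec9a on the same strand, so reads of the shared stretch cannot be told apart.

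Clec5a encodes MDL1, which amplifies myeloid activation through DAP12. Its normalized counts were 46.2, 63.2 and 58.0 in DKK1 libraries, against 1543, 1611 and 1593 in control libraries, with each DKK1 library far below each control library. It was 28.4-fold lower with DKK1 (log2 change -4.81, limma adjusted p = 1.58e-09, SE 0.12).

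Both ITIM receptors of the set fell as well. Clec12a encodes MICL, which binds uric acid crystals and restrains neutrophil activation, and stood at 49.2, 42.6 and 49.0 in DKK1 libraries, against 1341, 1233 and 1187 in control libraries. It was 26.7-fold lower with DKK1 (limma adjusted p = 8.29e-10, log2 change -4.71, SE 0.11). Clec4a2 encodes DCIR1 and stood at 105, 56.3 and 107 in DKK1 libraries, against 919.2, 1032 and 869.9 in control libraries, with DKK1 library 2 the lowest. It was 10.5-fold lower with DKK1 (limma adjusted p = 8.17e-07, log2 change -3.43, SE 0.23). Clec4a2 has related copies nearby, and its longest coding transcript aligned to Clec4a4 at 85.1% identity over 786 of 2481 bases, so reads could in part be shared among them. Clec4a4 itself had 25 reads with DKK1 and 17 in control. The longest alignment was to Clec4b2, at 75.4% over 818 bases, and Clec4b2 had 7 reads with DKK1 and 80 in control. Clec4a3, which aligned at 80.8% over 637 bases, had 1393 reads with DKK1 and 914 in control and rose (log2 change 0.37, limma adjusted p = 0.00265), so in DKK1 libraries it had more reads than Clec4a2, which had 313. How far reads were shared was not tested.

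Clec2d stood at 298.9, 395.6 and 257.2 in DKK1 libraries, against 1110.2, 1189 and 1129 in control libraries. It was 3.60-fold lower with DKK1 (limma adjusted p = 2.21e-06, log2 change -1.87, SE 0.14), the smallest fall of the 6. B cell markers moved the same way, with 8 of 9 lower and Ms4a1 not past the test, and their normalized counts summed to 42.6 to 119 in DKK1 libraries, against 1516 to 1616 in control libraries, of which Ighm averaged 49.3 with DKK1 and 1458 in control. Vpreb3 had 0 reads with DKK1 and 18 in control, so it passed the filter only through control. Cd79a had 15 reads with DKK1 and 34 in control, and the part of B cells in the Clec2d result was not tested. Clec2d aligned to Clec2g at 89.4% identity over 792 of 1213 bases, and to Clec2i at 86.8% over 793 bases. Clec2g had 1 read with DKK1 and 0 in control, and Clec2i had 80 with DKK1 and 19 in control.

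Clec10a was barely detected. It had 4.47, 5.49 and 9.80 normalized counts in DKK1 libraries, from 22 reads, and 1.10, 1.12 and 0 in control libraries, from 2 reads. The ratio of reads was 9.42 with a 95% exact counting interval of 2.32 to 82.6, which covers counting error only. Limma gave a log2 change of 2.14 (SE 0.53, adjusted p = 0.00554), and over the alternatives of the fit the log2 change ran from 0.62 to 3.59 and the adjusted p from 0.00228 to 0.0386. Part of its transcript is close to Mgl2 (96.4% identity over 727 of 2332 bases), which had 5 reads with DKK1 and 0 in control.

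**Figure D2:**
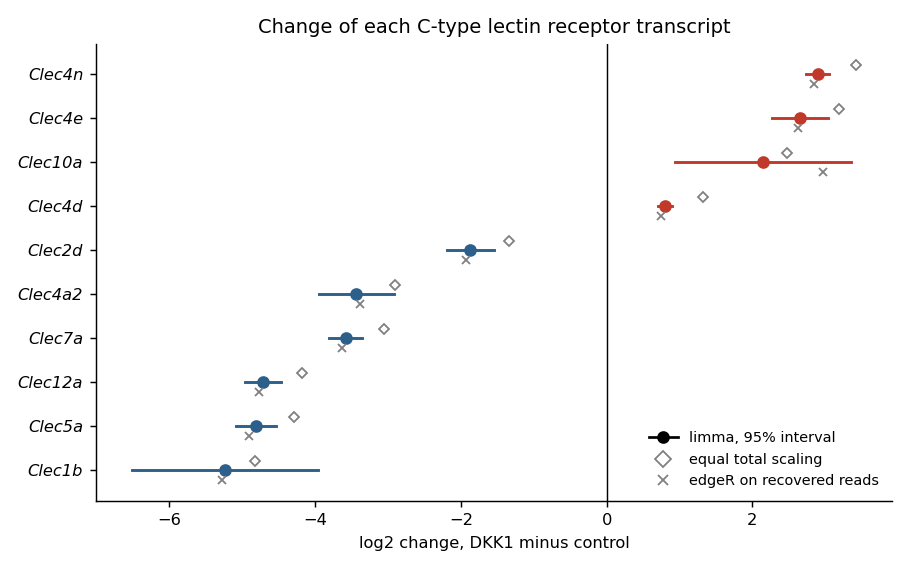
Log2 change (DKK1 minus control) of each receptor gene by limma with its 95% interval, beside the value after scaling libraries to equal totals (diamonds) and by edgeR on recovered reads (crosses). The 4 genes right of 0 and the 6 left of it stay on their side under both alternatives.

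Summed normalized counts were 6738824 ± 336773 with DKK1 and 9729307 ± 39771 in control. Scaling all libraries to equal totals moved the median log2 change of all genes by 0.47 and gave 7098 genes higher and 4742 lower (43.6% and 29.2%, 72.8% in all), against 5709 and 5873. Under that scaling the log2 change was 1.33 for Clec4d and -1.34 for Clec2d, the receptors nearest 0, and no receptor changed direction.

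Levels of different genes were compared per kilobase of the longest coding transcript in GENCODE M21. On this scale Clec4e and Clec4d led in DKK1 libraries at 17130 ± 4986 and 15216 ± 430.5 normalized counts per kb. Their ranges overlapped, so their order was not set. Clec4n followed at 2721 ± 139, Clec7a at 380.6 ± 60.7 and Clec2d at 262 ± 58.5. Clec4a2, Clec12a and Clec5a lay between 36.1 and 14.9, and Clec10a and Clec1b, whose ranges overlapped, at 2.83 and 1.93. In control the order was Clec4d at 8748 ± 193, Clec7a at 4530 ± 94.4, Clec4e at 2650 ± 55.8 and Clec2d at 942 ± 33.7. Clec12a, Clec5a, Clec4a2 and Clec4n followed between 501 and 364.5, and the ranges of Clec5a and Clec4a2 and those of Clec4a2 and Clec4n overlapped. Clec1b stood at 87.0 and Clec10a at 0.32. Over the union of all annotated exons, which for Clec4e includes long retained introns, Clec4d led in DKK1 libraries at 12589 ± 356, with Clec4e at 8688 ± 2528. That scale also moved Clec12a to 8.49 with DKK1, below Clec5a, and to 226.8 in control, where it stood 8th, below Clec5a, Clec4a2 and Clec4n. Clec1b stood at 0.41 with DKK1 and 18.6 in control on it. These places in the order thus depend on the length used.

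Among 15700 genes ranked by level per kb, Clec4e was number 8 in DKK1 libraries and number 206 in control. Clec4d was number 11 with DKK1 and number 44 in control, and Clec4n number 111 with DKK1 and number 1623 in control. Clec7a went the other way, at number 1171 in DKK1 libraries and number 104 in control. Clec5a, Clec12a and Clec4a2 ranked 8209, 7719 and 6163 with DKK1, against 1435, 1231 and 1570 in control.

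The makeup of the receptor transcripts differed between the groups in every library. The FcRgamma-coupled Clec4d, Clec4e and Clec4n made up 97.9%, 98.0% and 98.0% of the summed level per kb of the 10 receptors in DKK1 libraries, and 63.1%, 63.4% and 63.0% in control libraries. Clec4e alone made up 42.9%, 54.6% and 44.2% with DKK1 and 14.1%, 13.9% and 14.7% in control. The share of Clec4d was 46.3%, 37.3% and 45.4% in DKK1 libraries, against 47.1%, 47.4% and 46.4% in control. Clec7a and Clec1b together made up 1.07% ± 0.02 with DKK1 and 24.8% ± 0.52 in control, and the ITIM receptors 0.16% ± 0.06 with DKK1 and 4.72% ± 0.21 in control (SD, n = 3 each). The ratio of Clec4e to Clec4d per kb was 0.93, 1.46 and 0.97 in DKK1 libraries, against 0.30, 0.29 and 0.32 in control. Over the union of exons this ratio was 0.57, 0.90 and 0.60 in DKK1 libraries, against 0.18, 0.18 and 0.19 in control, and the share of Clec4e averaged 35.3% with DKK1 and 9.13% in control. The share of the FcRgamma-coupled receptors averaged 97.3% with DKK1 and 60.4% in control on that scale. The summed level of all 10 was 35784 ± 5335 with DKK1 and 18624 ± 216 in control.

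**Figure D3:**
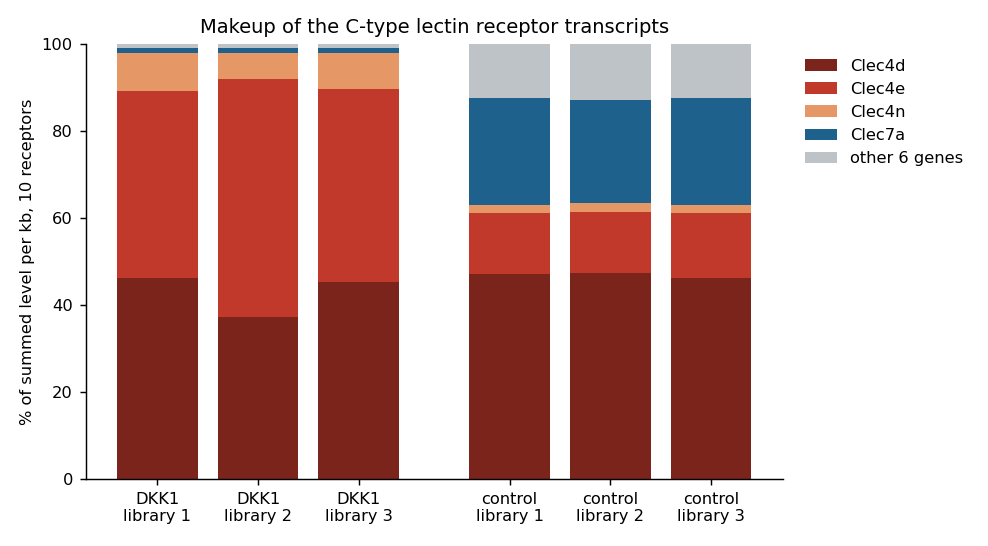
Share of the summed level per kb of the 10 receptor genes taken by Clec4d, Clec4e, Clec4n, Clec7a and the other 6 genes, as a stacked bar per library in percent. Clec7a takes 1.06% on average in DKK1 libraries and 24.3% in control libraries, and Clec4e 47.2% in DKK1 libraries and 14.2% in control libraries.

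Of the 10 genes 9 lie on chromosome 6 and Clec10a on chromosome 11, by GENCODE M21 on GRCm38. Without their version, 51948 of the 56884 identifiers in the table (91.3%) matched that annotation, as did 15700 of the 16265 genes tested (96.5%). A pair of stretches on chromosome 6 holds 8 of the 9, and direction changed within the first. From Clec4a2 (ENSMUSG00000030148.16, 123106428 to 123143999, plus strand) to Clec4e (ENSMUSG00000030142.11, 123281789 to 123289870, minus strand), 183 kb hold 5 coding genes. Clec4a2 and its neighbour Clec4b2 fell, Clec4b2 with 7 reads with DKK1 and 80 in control (log2 change -3.94, limma adjusted p = 0.00104). The next 3 genes all rose: Clec4n (ENSMUSG00000023349.15, 123229843 to 123247021, plus strand), Clec4d (ENSMUSG00000030144.5, 123262111 to 123275265, plus strand) and Clec4e. Clec4d and Clec4e lie tail to tail.

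The second stretch runs 292 kb from Clec2d (ENSMUSG00000030157.6, 129180615 to 129186534, plus strand) to Clec7a (ENSMUSG00000079293.13, 129461591 to 129472779, minus strand) and holds 9 genes. Clec12a (ENSMUSG00000053063.12, 129342691 to 129365303, plus strand) and Clec1b (ENSMUSG00000030159.16, 129397297 to 129409335, plus strand) lie within it. Of its 8 tested genes 7 were lower by limma, and 1, Cd69, did not pass. Besides the 4 receptors of the set, these were Clec9a, a receptor for dead cells on dendritic cells (4 reads with DKK1 and 92 in control, log2 change -4.16), Clec1a (log2 change -2.21) and Clec12b (log2 change -2.31). The call for Clec12b was lost under 4 alternatives, with an adjusted p of up to 0.104. Cd69, an activation marker of lymphocytes, did not pass (66.1 ± 35.1 with DKK1 and 81.3 ± 2.33 in control, limma adjusted p = 0.276); without DKK1 library 2 its log2 change was -0.82 (adjusted p = 0.00499). Neighbouring genes were chosen by position after values of these data were known. The ends of both stretches were set by receptors of the set, and the order of genes beyond them was not examined. Clec5a (ENSMUSG00000029915.15, 40574894 to 40585821, minus strand) lies apart on chromosome 6, and Clec10a (ENSMUSG00000000318.17) on chromosome 11 from 70156197 to 70170834, plus strand.

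**Figure D4:**
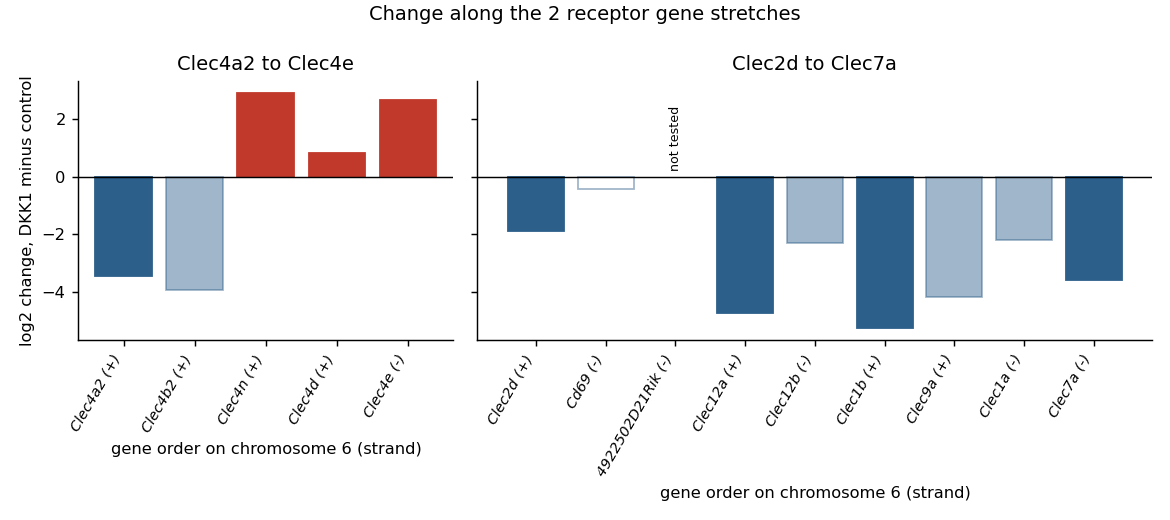
Log2 change (DKK1 minus control) of the genes in their order along both chromosome 6 stretches, with the strand after each name. Dark bars are receptors of the set, pale bars their neighbours, and an open bar did not pass the test; Clec4n, Clec4d and Clec4e rise beside Clec4a2 and Clec4b2, which fall, and every called gene of the second stretch falls.

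The adaptor genes moved in opposite directions. Fcer1g, the FcRgamma chain, stood at 7471, 7694 and 7299 in DKK1 libraries, against 2920.0, 2889 and 3016 in control libraries (2.55-fold higher, log2 change 1.35, limma adjusted p = 1.39e-08). Tyrobp, which encodes DAP12, stood at 2326, 2582 and 2452 in DKK1 libraries, against 13139, 13252 and 12993 in control libraries (5.35-fold lower, log2 change -2.42, limma adjusted p = 6.2e-10). Of the 10 adaptor and proximal kinase genes 3 were higher and 7 lower, and their median log2 change was -2.56. The Src family kinase genes Fgr and Lyn, whose products phosphorylate these receptors, fell 10.1-fold and 6.49-fold. Syk averaged 6953 ± 614 with DKK1 and 14289 ± 308 in control, 2.06-fold lower. Fcer1g and Syk were singled out after their values were seen.

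The CARD9 module split within itself, with 7 of 14 genes higher and 7 lower (median log2 change 0.13). Card9 stood at 77.5, 52.2 and 80.02 in DKK1 libraries, against 1231, 1241 and 1225 in control libraries, which is 17.6-fold lower (limma adjusted p = 1.84e-08). Its partner gene Bcl10 was 3.21-fold lower. Malt1, the protease of the same complex, stood at 12033, 18645 and 12364 in DKK1 libraries, against 1005, 1066 and 972 in control libraries, which is 14.1-fold higher (limma adjusted p = 2.36e-08), with DKK1 library 2 highest as for Clec4e. Ikbkg, the regulatory subunit of the IKK complex, was 10.04-fold higher.

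Phosphatase genes also split, 2 of 4 higher and 2 lower. Ptpn6, which encodes SHP-1, averaged 721 ± 139 with DKK1 and 5545 ± 94.0 in control, and the lipid phosphatase gene Inpp5d 770.2 ± 119 with DKK1 and 3171 ± 48.7 in control. Ptpn11, which encodes SHP-2, averaged 1052 ± 60.6 with DKK1 and 515 ± 72.3 in control, and Dusp5, a MAP kinase phosphatase gene, 1152 ± 43.0 with DKK1 and 371.2 ± 2.98 in control. Of 14 transcription factor genes downstream of these receptors 4 were higher, 8 lower and 2 did not pass (median log2 change -1.33). Nfkb2 and Relb, of the noncanonical NF-kappaB arm, were 8.16-fold and 4.83-fold higher, while Nfatc1 was 6.66-fold lower. Egr1, an immediate early factor, averaged 80.4 ± 38.1 with DKK1 and 23429 ± 128 in control.

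Of 16 cytokine and enzyme genes that SYK and CARD9 signalling is known to induce, 15 were tested, 13 higher and 2 lower (median log2 change 5.42). Setting a group without reads to 3 reads in all left this median, the value of Ccl4, unchanged. That does not address genes that passed the filter only through the DKK1 libraries, which the median includes. The chemokine gene Ccl4 averaged 6701 ± 1470 with DKK1 and 154 ± 13.1 in control, and Nos2, the inducible nitric oxide synthase gene, 736 ± 64.4 with DKK1 and 8.87 ± 1.18 in control. Il1a averaged 2152 ± 887 with DKK1 and 3.16 ± 0.86 in control. Il1b went against the list, at 554 ± 161 with DKK1 and 22489 ± 260 in control, and Ptgs2, the inducible cyclooxygenase gene, also fell. Of the genes that rose, 5 (Il6, Il12b, Il23a, Csf2 and Csf3) had 0 control reads and passed the filter only through the 3 DKK1 libraries. Leaving out any DKK1 library therefore left 8 genes higher. DKK1 library 2 was again highest for several, with Tnf at 8414, 16944 and 8870 and Cxcl2 at 16398, 32657 and 17844 in DKK1 libraries 1 to 3, against means of 457 ± 19.4 and 7422 ± 233 in control.

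**Figure D5:**
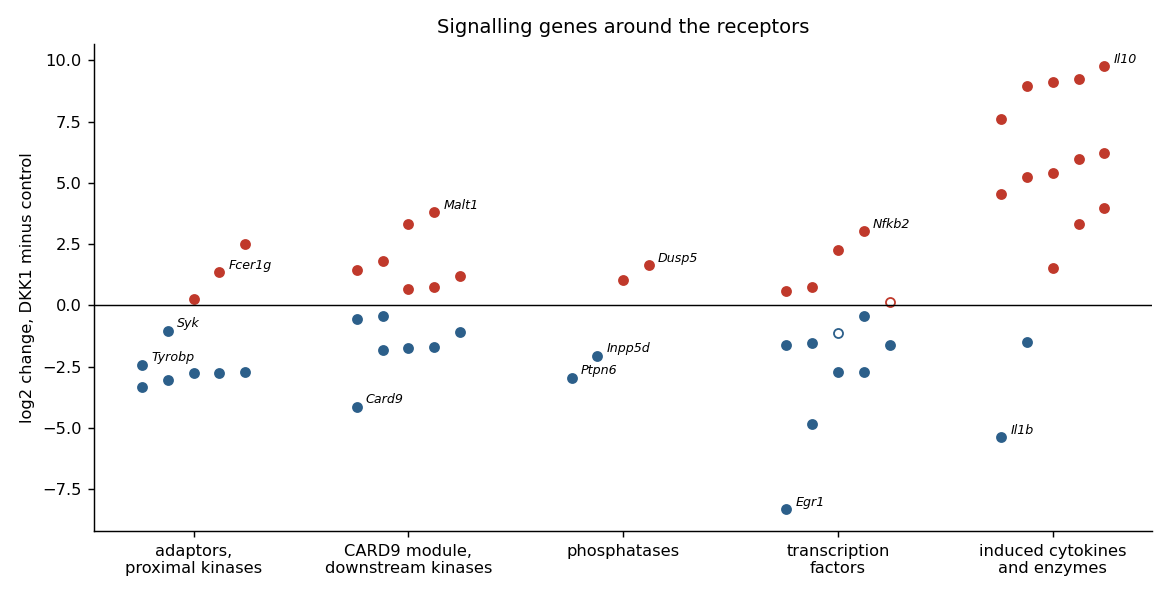
Log2 change (DKK1 minus control) of the tested genes in 5 lists around the receptors, with 1 point per gene (red higher, blue lower, open not past the test). Fcer1g lies above 0 and Tyrobp below it, and Malt1 above 0 and Card9 below it.

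The genes nearest to Clec4e in pattern, by Euclidean distance over the 6 libraries on log2(normalized count + 1), were Il1rn (distance 0.46), Slc7a11 (1.64) and Cxcl2 (1.74). Il1rn, which encodes the interleukin-1 receptor antagonist, averaged 38666 ± 7012 with DKK1 and 5861 ± 128 in control. Those nearest to Clec4d, the receptor most abundant in control, were Plek (0.78), Pkm (0.78) and Akap13 (0.92). Plek, which encodes the protein kinase C substrate pleckstrin, averaged 14915 ± 1470 with DKK1 and 11829 ± 272 in control. With 6 libraries in 2 groups, this distance is set by the level and the difference of each gene, and it is a description.

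Among 49 other genes with C-type lectin-like domains 27 were tested. Of these 9 were higher, 12 were lower and 6 did not pass, with a median log2 change of -0.69. Pla2r1 and Asgr2 had 0 control reads and Clec2e had 0 reads with DKK1, so these 3 passed the filter only through the group where they were high. Leaving out any DKK1 library gave 7 higher. Cd93 and Thbd (thrombomodulin) fell 5.36-fold and 50.3-fold. Ly75, the endocytic receptor DEC-205, averaged 3623 ± 117 with DKK1 and 275 ± 33.1 in control. Olr1 averaged 718 ± 69.1 with DKK1 and 20.4 ± 5.11 in control, which is 35.2-fold higher. The list also held 12 genes with 0 reads in all 6 libraries, among them Cd207, Cd209b and Asgr1.

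Markers of other myeloid cells moved too. Of 16 monocyte and macrophage markers 15 were tested, 5 higher, 7 lower and 3 not past the threshold, and they summed to 28870 to 30854 normalized counts in DKK1 libraries, against 7389 to 7523 in control libraries. The rise came from Gpnmb, Cd68, Adgre1, Ms4a7 and Cx3cr1. Of the lower genes, Ly6c2 averaged 30.1 ± 13.9 with DKK1 and 2504 ± 68.4 in control. Csf1r averaged 2073 ± 141 with DKK1 and 2754 ± 41.4 in control, and Ccr2 had 1 read with DKK1 and 147 in control. C1qa, Cd163 and Timd4 had 0 reads in DKK1 libraries, so C1qa and Cd163 passed the filter only through control. Of 11 dendritic cell markers 10 were tested, 4 higher and 1 lower, with a summed count of 801 to 1018 in DKK1 libraries, against 1754 to 1841 in control. The lower sum was carried by Itgax, at 629 ± 50.7 with DKK1 and 1642 ± 39.9 in control, while Xcr1, Zbtb46, Ccr7 and H2-Aa were higher and the list had a median log2 change of 0.50. Siglech had 0 reads in DKK1 libraries. Ccr7 had 0 in control, so it passed the filter only through the DKK1 libraries. Of 11 eosinophil, basophil and mast cell markers 5 were higher, 3 lower and 3 not past the test, summing to 433 to 492 in DKK1 libraries, against 388 to 417 in control libraries. Kit averaged 251 ± 58.2 with DKK1 and 32.9 ± 4.73 in control, and Mcpt8, Cpa3, Gata2 and Ms4a2 also rose. Siglecf, an eosinophil marker, had 4 reads with DKK1 and 823 in control. The part of such cells in the receptor results was not tested.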

How the data were processed

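The deposited table gives normalized counts per gene and library, a signal that is never negative, per the file headers. The genome build was mm10, per the submitters' processing notes. No source used here names the authors' aligner, counter, strand setting or size factor method. The table has 3 more value columns that fit none of the labelled samples, and these were left out. Dividing each library by its smallest step gave whole reads (100% of values within 0.001), so reads were recovered. Groups came from sample titles. The contrast, DKK1 minus control, was tested with limma 3.58.1 (R 4.3.3, with a mean-variance trend and robust moderation) on log2(normalized count + 1), a scale that understates changes of low genes. Genes with at least 1 in at least 3 libraries entered, 16265 in all. Because the values are normalized, edgeR 4.0.16 and DESeq2 1.42.0 on recovered reads were alternatives, where the count tests called 11402 and 10679 genes. Other alternatives were a replicate block, other pseudocounts, filters and scalings, limma without trend or robust fitting, and leaving out each library. The fit was first tested on simulated counts. Folds are ratios of group means. Similarity of transcripts came from blastn 2.17.0, with alignments of at least 100 bases. Sequence windows came from RefSeq's promoter table, which held 8 of the 10 genes. Counting intervals (95%) and floors (3 reads) cover counting error only, and no molecular identifiers are named in the sources used here. Libraries of a group differed beyond counting noise, so each counted as 1 replicate.

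Members and gene lists were chosen with earlier results of these data known. All 10 receptors were named, and from each list at most 4 genes of smallest adjusted p; others named were chosen after their values were seen.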

Additional observations from a re-analysis of the deposited data

How the results depend on the processing

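Over 16 alternatives the receptors gave 159 results, and all 159 kept their direction and their side of the threshold. Clec10a could not be tested with a filter of 10 in 3 libraries, which left 1 receptor untested, 3 higher and 6 lower. Under every other alternative 4 were higher and 6 lower. The log2 change of Clec1b ran from -6.58 to -3.13 with the pseudocount, the widest range of the receptors that fell, and depth limits it and Clec10a. With 1 library left out, the genes higher with DKK1 numbered 4884 to 5379 and the genes lower with DKK1 4652 to 5846. Over the union of exons, an alternative for the order of levels chosen after seeing the data, Clec4d led Clec4e in DKK1 libraries.

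With the replicate number as a block, the genes higher with DKK1 numbered 5630 and the genes lower with DKK1 5817, and the receptors gave the same 4 and 6. No pairing by number was seen. Same-numbered libraries had correlations of deviations of -0.00517, 0.00659 and 0.0172, and not every library correlated best with its own number. Correlations this small cannot tell whether the libraries were paired.

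The log2 change of Cd69, a neighbour gene that was not called, reversed to 0.10 with equal totals, a scaling that by construction raises DKK1 libraries relative to control (the median log2 change of all genes by 0.47).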

Other observations

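Genes listed around these receptors as endogenous ligands, partners or alarmins numbered 8, and 7 were tested. Of these 1 was higher, 5 were lower and 1 did not pass, with a median log2 change of -1.80. Among all genes tested 35.1% were higher and 36.1% lower. Of the 5 lower genes, Klrb1f rested on 3 reads with DKK1 and 12 in control. S100a8 and S100a9, alarmins that are also neutrophil markers, averaged 1469 ± 124 and 628.2 ± 94.997 with DKK1, against 187278 ± 5251 and 287287 ± 6877 in control. Lgals9, which encodes galectin-9, a ligand of Dectin-1, averaged 102 ± 9.54 with DKK1 and 1429 ± 79.8 in control. Vim, which encodes vimentin, averaged 1235 ± 73.8 with DKK1 and 3616 ± 82.9 in control. Sap130, the 1 called higher, averaged 409 ± 22.5 with DKK1 and 342.2 ± 14.1 in control (limma adjusted p = 0.0253). Its symbol matches the name of the Mincle ligand SAP130, but it is not the gene of that ligand. The log2 change of Sap130 was 0.26, and its call was lost under 8 of 16 alternatives, with an adjusted p of up to 0.175. Pdpn, the podoplanin gene, had 68 reads with DKK1 and 42 in control and did not pass.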
